A study of Homo sapiens with 6 samples.

Results

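The genes described here encode actins, myosins and the proteins that decorate, turn over or control actin filaments, 42 genes chosen by name. A gene was followed through the probe sets whose platform annotation gives its symbol alone. Of the 42 genes, 41 had such a probe set, among 18132 genes on the array, and together they had 158 of the 44988 probe sets paired with a single gene. The expression of TPM3, a tropomyosin gene, was not analysed here. Where a gene had several probe sets, the one brightest on average across the 6 arrays represents it, and the others are described beside it. The 42 genes were chosen with results of this same comparison known, among them the large differences of ACTC1 and TAGLN. The calls and counts of these genes are therefore descriptions, and no statement rests on them as independent evidence.

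The cells were BCPAP, a line from a human papillary thyroid carcinoma. The shCSF2 group (n = 3 arrays) had been transduced with a lentivirus carrying a short hairpin RNA against CSF2, which encodes the cytokine GM-CSF, and the shCtrl group (n = 3 arrays) with a lentivirus carrying a non-targeting hairpin. Cells of both groups went through puromycin selection, begun 48 hours after transduction and lasting 7 days, so the controls share the vector and the drug. How many hairpins were used per gene is not given in the sources used here. RNA was hybridised to Affymetrix PrimeView arrays, and all values below are the deposited log2 expression values, where a difference of 1 is a 2-fold difference.

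Array medians lay between 5.77 and 5.79, no pair of arrays held identical values, and no probe set was paired with CSF2, so the knockdown was not checked at its target. Of 6 thyroid markers with a probe set, PAX8, NKX2-1 and FOXE1 had means of at least 5, while TG, TSHR and SLC5A5 lay below that level. The keratin genes KRT7, KRT8 and KRT18 and the epithelial marker EPCAM were also above it, whereas CDH1 and KRT19 were not. Probe sets made against no human sequence, sorted by their content of G and C, ran from 1.69 to 10.7 with a median of 2.52, so a low value does not by itself show that a transcript is present. Only MYH14 among the 41 genes had a mean under 5. In cultured cells read in bulk, a smaller share of cells with a transcript and less of it in each cell cannot be told apart.

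Actin monomers assemble into filaments that branch, bundle and carry tension when myosin II pulls on them. Myosin II is a hexamer of heavy chains and light chains, and phosphorylation of its regulatory light chain by myosin light chain kinase turns it on. Tropomyosin, caldesmon, calponin and transgelin bind along the filament. Many of these genes are controlled by serum response factor, SRF, which binds a promoter element called the CArG box together with myocardin or with the myocardin-related factors MRTFA and MRTFB. The MRTFs are held in the cytoplasm by free actin monomers.

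In shCSF2 cells 4 contractile genes stood clearly lower, while other contractile genes of the list, such as SMTN and MYH11, did not pass. The 4 genes that passed with a change of at least 1.5-fold were all lower: the cardiac actin gene ACTC1, the transgelin gene TAGLN, the regulatory light chain gene MYL9 and the caldesmon gene CALD1. In the limma fit over all genes, at a Benjamini-Hochberg adjusted p of 0.05, 20 of the 41 genes fell, 2 rose and 19 did not pass. Among all 18132 genes, 16.0% fell and 16.7% rose by the same rule, 32.7% in either direction. With a change of at least 1.5-fold as well, 0.982% of all genes fell and 1.4% rose. The median log2 fold change was -0.14 over the 41 genes and -0.03 over all genes. In 26 of the 41 genes the 3 shCSF2 arrays all lay below the 3 shCtrl arrays, and 24.6% of all genes did so. The opposite order was seen in 3 of the 41 genes and in 22.1% of all genes, so that either kind of separation held for 29 of the 41 and for 46.7% of all. Since the genes were chosen with this comparison in view, nothing is read from these shares.

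**Figure D1:**
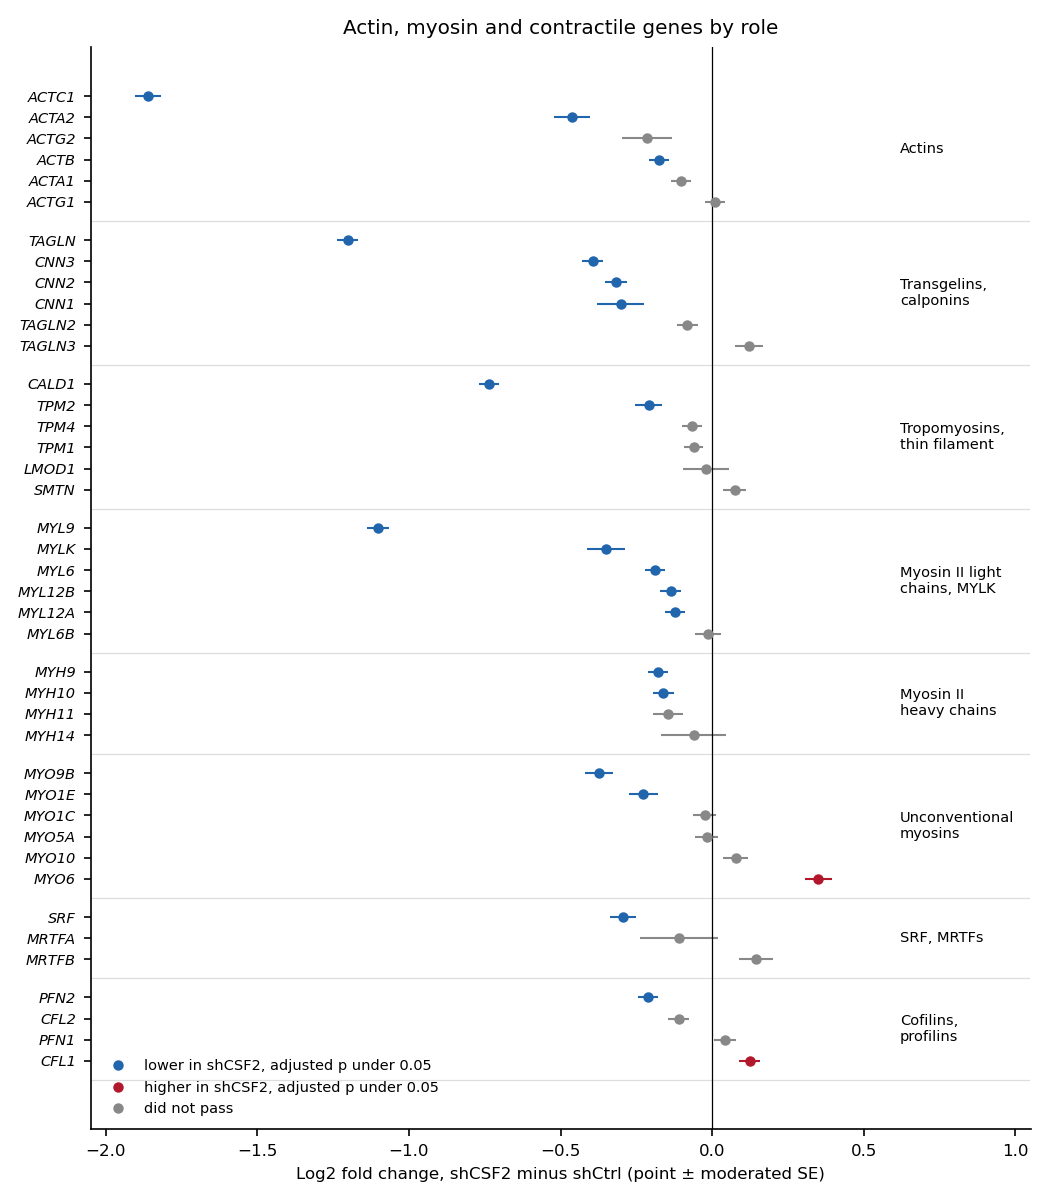
Log2 fold change (shCSF2 minus shCtrl, horizontal axis) of the 41 genes, grouped by role, each point being the probe set with the highest mean and each bar the moderated SE from 3 arrays per group. Blue points passed as lower, red as higher and grey did not pass; ACTC1 (-1.86), TAGLN (-1.20), MYL9 (-1.10) and CALD1 (-0.74) lie farthest to the left, and MYO6 and CFL1 are the 2 red points.

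Humans have 6 actin genes, ACTC1 (cardiac), ACTA1 (skeletal), ACTA2 and ACTG2 (smooth muscle) and ACTB and ACTG1, which every nonmuscle cell uses. ACTC1 read 6.68, 6.77 and 6.68 on the shCSF2 arrays, against 8.59, 8.52 and 8.59 on the shCtrl arrays. The groups lay far apart relative to the spread within either, and ACTC1 had the second largest absolute difference of all genes (log2 fold change -1.86 ± 0.04, SE, a 3.63-fold lower value). The other ACTC1 probe set was dim and did not differ, at 3.26 ± 0.15 in shCSF2 and 3.27 ± 0.10 in shCtrl cells (mean ± SD, n = 3). With both averaged the ACTC1 difference was -0.94.

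ACTA2, the actin of vascular smooth muscle and of myofibroblasts, read 4.91, 4.89 and 5.03 in shCSF2 cells, against 5.51, 5.35 and 5.37 in shCtrl cells. It was low in both groups without overlap (log2 fold change -0.46 ± 0.06). Its other 2 probe sets, which had means between 2.47 and 2.65, did not pass, and the mean of the 3 differed by -0.15. ACTG2, the enteric smooth muscle actin, read 5.20, 5.44 and 5.28 in shCSF2 cells, against 5.38, 5.61 and 5.56 in shCtrl cells. These ranges overlap and the gene did not pass by this probe set, although its 4 dimmer probe sets all passed as lower, with differences between -0.27 and -0.55. With its 5 probe sets averaged ACTG2 passed at -0.37, and it also passed in the fits without shCSF2 replicate 2 and without shCtrl replicate 1.

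ACTB read 12.68, 12.70 and 12.69 on the shCSF2 arrays, against 12.86, 12.85 and 12.89 on the shCtrl arrays. The difference was small and without overlap (log2 fold change -0.18 ± 0.03, a 1.13-fold lower value). It passed by 1 of 3 probe sets. The array's separate quality-control probe sets for the same transcript were lower as well, by -0.12 at the 3′ end, -0.14 in the middle and -0.14 at the 5′ end, and those for GAPDH were higher by 0.03 to 0.05. The ACTB 3′ minus 5′ difference, a measure of RNA integrity, ranged from 0.57 to 0.66 in shCSF2 and from 0.54 to 0.63 in shCtrl arrays, with overlap. The same difference for GAPDH ranged from -0.019 to 0.0021 in shCSF2 and from -0.049 to -0.026 in shCtrl arrays, without overlap. The part of RNA integrity in the results was not tested.

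ACTG1, cytoplasmic gamma actin, read 13.33, 13.30 and 13.34 in shCSF2 cells, against 13.34, 13.30 and 13.31 in shCtrl cells. It did not differ beyond this spread (log2 fold change 0.01 ± 0.03), and its 5 probe sets lay between -0.02 and 0.01. ACTA1 read 6.77, 6.81 and 6.79 in shCSF2 cells, against 6.89, 6.88 and 6.91 in shCtrl cells. Its groups did not overlap, but it narrowly missed the threshold (log2 fold change -0.10 ± 0.03, limma adjusted p = 0.0501), while its 2 dimmer probe sets passed at -0.19 and -0.23. ACTA1 passed with its 3 probe sets averaged (-0.17) and after each filter on dim genes. The transcripts of the actin genes are alike, and the probe sets that represent ACTA1, ACTB and ACTG1 carry the ending that Affymetrix gives where probes may also bind other transcripts. The same ending is carried by the representing probe sets of TAGLN, CNN2, TPM2, MYL6B, MYL9 and MYH11, and by both probe sets of MYL9. The values of these 9 genes from such probe sets are therefore uncertain as readings of 1 gene each. Probe sets without this ending passed as lower for TAGLN (-1.27) and CNN2 (-0.19), and did not pass for MYL6B (-0.01). TPM2 had one that passed (-0.29) and one that did not (-0.13). The representing probe sets of 12 genes have the ending for probes shared by several transcripts. These are ACTA2, TPM1, TPM4, MYL12A, MYL12B, MYH10, MYO1C, SRF, MRTFB, CFL2, PFN1 and PFN2. Whether the shared transcripts include those of other genes was not tested.

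Promoters are shown for actin genes that did and did not pass, and for CNN2, MYLK and SRF, which all fell. The CArG box is the element through which SRF acts on its target genes. Windows with a box in ACTA1, TPM4 and SMTN, which did not pass, and in MYO1E, which fell, are not shown. The sequences are the RefSeq windows of build GRCh38.p14, from 250 bases before to 50 after the annotated start of transcription, read 5′ to 3′ on the strand of the gene, with the CArG box in capitals. For ACTA2, which had no perfect box in either of its windows, the capitals mark the 2 boxes with 1 G or C in the A/T core. In ACTC1 the box began 109 bases before the start, in ACTG1 94, in MYLK 94, in CNN2 89, in ACTG2 110 and 73, and in SRF itself 30 and 10.
ACTC1 (chr15:34795500-34795799, minus strand, fell): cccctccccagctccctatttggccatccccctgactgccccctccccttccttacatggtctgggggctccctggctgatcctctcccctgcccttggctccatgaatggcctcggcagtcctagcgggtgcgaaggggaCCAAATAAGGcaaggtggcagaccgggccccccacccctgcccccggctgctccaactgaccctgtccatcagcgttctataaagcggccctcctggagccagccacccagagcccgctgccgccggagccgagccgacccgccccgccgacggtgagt
ACTA2 (chr10:88952724-88953023, minus strand, fell): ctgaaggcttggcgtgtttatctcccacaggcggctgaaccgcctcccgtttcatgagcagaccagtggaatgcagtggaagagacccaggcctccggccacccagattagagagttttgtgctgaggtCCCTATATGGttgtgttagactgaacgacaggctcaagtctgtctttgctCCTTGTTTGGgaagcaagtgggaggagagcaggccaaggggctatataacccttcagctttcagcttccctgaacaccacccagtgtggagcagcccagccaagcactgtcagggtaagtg
ACTG2 (chr2:73892758-73893057, plus strand, did not pass): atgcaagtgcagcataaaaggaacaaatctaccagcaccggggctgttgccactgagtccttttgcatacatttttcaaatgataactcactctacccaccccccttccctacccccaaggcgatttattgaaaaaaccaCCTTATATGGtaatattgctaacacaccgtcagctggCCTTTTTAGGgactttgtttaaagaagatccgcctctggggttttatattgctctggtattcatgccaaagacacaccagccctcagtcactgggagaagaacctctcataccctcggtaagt
ACTG1 (chr17:81512750-81513049, minus strand, did not pass): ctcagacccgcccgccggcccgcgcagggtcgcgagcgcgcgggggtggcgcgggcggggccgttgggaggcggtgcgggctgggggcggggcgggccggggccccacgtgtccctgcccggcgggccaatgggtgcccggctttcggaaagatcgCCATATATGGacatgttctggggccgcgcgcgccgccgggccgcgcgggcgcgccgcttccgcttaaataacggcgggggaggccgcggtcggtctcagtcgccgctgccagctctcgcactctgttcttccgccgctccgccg
CNN2 (chr19:1026358-1026657, plus strand, fell): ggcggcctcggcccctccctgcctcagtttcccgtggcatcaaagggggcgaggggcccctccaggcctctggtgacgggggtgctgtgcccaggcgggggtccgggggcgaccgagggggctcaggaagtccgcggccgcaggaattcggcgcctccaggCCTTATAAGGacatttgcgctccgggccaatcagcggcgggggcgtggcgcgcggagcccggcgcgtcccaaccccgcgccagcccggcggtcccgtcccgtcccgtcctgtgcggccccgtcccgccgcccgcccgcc
MYLK (chr3:123620499-123620798, minus strand, fell): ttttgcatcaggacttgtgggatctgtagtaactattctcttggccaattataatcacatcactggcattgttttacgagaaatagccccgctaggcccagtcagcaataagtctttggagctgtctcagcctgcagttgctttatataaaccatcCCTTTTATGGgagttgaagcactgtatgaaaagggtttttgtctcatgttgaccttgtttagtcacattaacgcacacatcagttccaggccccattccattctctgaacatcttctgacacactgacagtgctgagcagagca
SRF (chr6:43171019-43171318, plus strand, fell): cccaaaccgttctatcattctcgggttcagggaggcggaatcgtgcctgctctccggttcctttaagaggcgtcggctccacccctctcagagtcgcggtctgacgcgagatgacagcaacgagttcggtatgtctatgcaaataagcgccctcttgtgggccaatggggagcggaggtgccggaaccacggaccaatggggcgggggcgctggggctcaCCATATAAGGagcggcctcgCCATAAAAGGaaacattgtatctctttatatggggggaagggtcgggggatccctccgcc

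Windows were matched for 37 of the 42 genes, TPM3 included and some with several starts, and not for ACTB, TAGLN, MYL9, MYH11 and PFN2. They cover 16 of the 20 genes that fell and 18 of the 19 that did not pass. A perfect CArG box, searched by its pattern, which is the same on both strands, stood in 10 of the 68 windows of these genes (14.7%) and in 1.29% of all windows in the table. It was present in windows of 5 genes that fell (ACTC1, CNN2, MYLK, MYO1E and SRF) and of 5 that did not pass (ACTA1, ACTG1, ACTG2, TPM4 and SMTN). This split depends on the probe set that represents each gene. With all probe sets averaged, ACTA1 (-0.17), ACTG2 (-0.37) and TPM4 (-0.14) passed as lower, while ACTG1 and SMTN did not pass. TPM1 (-0.22) and LMOD1 (-0.26), whose windows held no perfect box, then passed as lower too. A box in the window therefore accompanied both outcomes, as in ACTC1 and ACTG1. The windows of CALD1 held no perfect box, but 1 held a box with 1 G or C in the A/T core, 26 bases before the start. Boxes with at most 1 such letter stood in 20.6% of the windows of these genes and in 8.12% of all windows. These matches describe letters only.

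Among the transgelins and calponins, small proteins that bind and stabilise actin filaments, 4 of 6 genes fell and 0 rose. Of all genes, 16.0% fell and 16.7% rose. TAGLN, the smooth-muscle transgelin, read 9.63, 9.63 and 9.60 in shCSF2 cells, against 10.79, 10.86 and 10.84 in shCtrl cells. Every shCSF2 array lay more than 1 log2 unit below every shCtrl array (log2 fold change -1.20 ± 0.04). All 6 TAGLN probe sets passed, between -1.20 and -1.38. TAGLN2, the broadly expressed form, had a log2 fold change of -0.08 ± 0.03 and the neuronal form TAGLN3 of 0.12 ± 0.05, and neither passed. Of the 5 probe sets of TAGLN2, 1 passed as lower (-0.22), while another differed by 0.20 without passing.

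The 3 calponins all fell, by less. CNN3, the acidic calponin of nonmuscle cells, averaged 10.75 ± 0.02 in shCSF2 and 11.14 ± 0.02 in shCtrl cells (mean ± SD, n = 3). CNN2 averaged 10.35 ± 0.02 in shCSF2 and 10.67 ± 0.04 in shCtrl cells, and all 9 of its probe sets passed as lower. CNN1, the smooth-muscle calponin, was dimmer and noisier, at 5.69 ± 0.13 in shCSF2 and 5.99 ± 0.10 in shCtrl cells, and 2 of its 4 probe sets passed. The CNN1 call was lost without shCtrl replicate 1 and without shCtrl replicate 3, with limma adjusted p between 0.0291 and 0.0726 over the fits with 1 array removed.

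**Figure D2:**
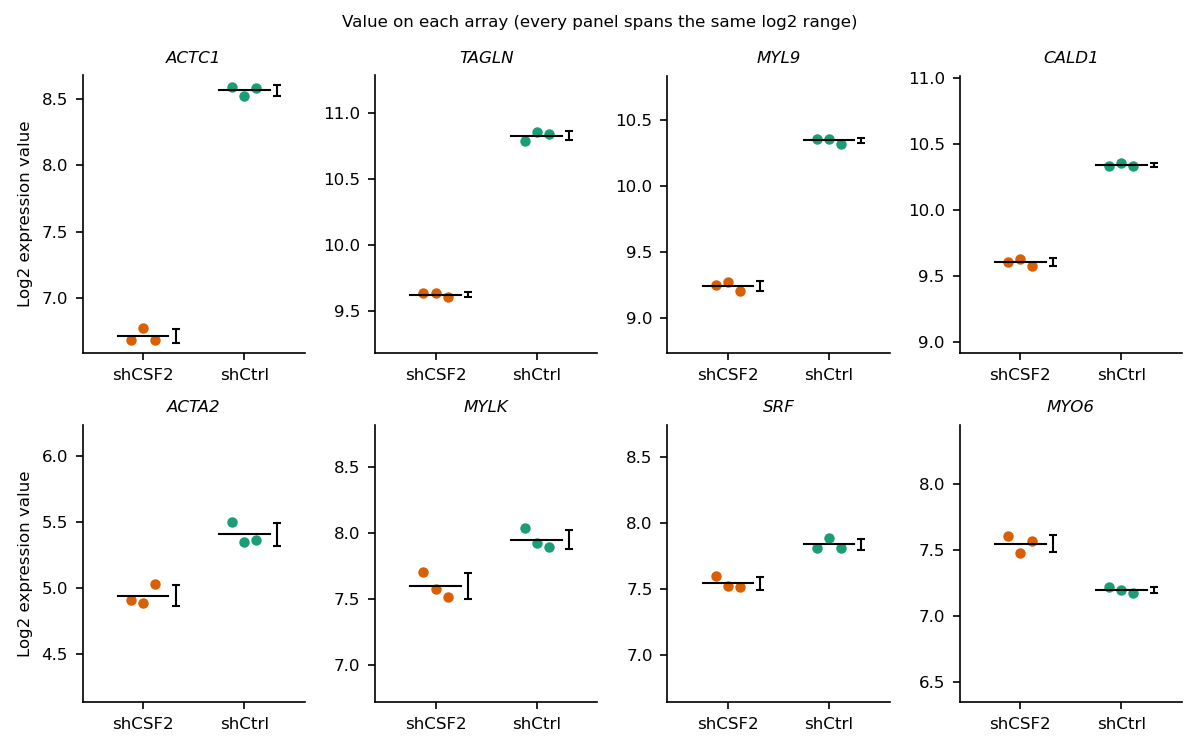
Log2 expression value (vertical axis) of 8 genes on each array, shCSF2 left and shCtrl right, with the group mean as a line and the SD (n = 3) as the bar beside it; every panel spans the same log2 range, so distances compare between panels. The groups do not overlap in any of the 8, shCSF2 is lower in ACTC1, TAGLN, MYL9, CALD1, ACTA2, MYLK and SRF, and higher in MYO6.

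Of the tropomyosins and other thin-filament proteins, 2 of 6 genes fell and 0 rose, beside 16.0% and 16.7% of all genes. CALD1, which encodes caldesmon, an actin-binding brake on myosin, read 9.61, 9.64 and 9.58 in shCSF2 cells, against 10.33, 10.36 and 10.34 in shCtrl cells. The groups were separated by many times their spread (log2 fold change -0.74 ± 0.03). All 10 CALD1 probe sets passed, within the narrow range of -0.83 to -0.67. TPM2, beta tropomyosin, fell less, at 7.09 ± 0.02 in shCSF2 and 7.30 ± 0.07 in shCtrl cells, and its call was lost by its most variable probe set (-0.18). TPM4 (log2 fold change -0.07 ± 0.03), the smoothelin gene SMTN (0.07 ± 0.04) and the leiomodin gene LMOD1 (-0.02 ± 0.08) did not pass.

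TPM1, alpha tropomyosin, depended on where it was read. By its brightest probe set it averaged 12.51 ± 0.01 in shCSF2 and 12.57 ± 0.02 in shCtrl cells and did not pass (log2 fold change -0.06 ± 0.03). By the probe set with the largest difference it read 8.35, 8.41 and 8.37 in shCSF2 cells, against 9.13, 9.16 and 9.18 in shCtrl cells, a log2 fold change of -0.78. A further probe set differed by -0.46, and 4 of the 9 passed, all as lower. TPM1 makes many splice forms, and which of them each probe set reads was not tested. With all 9 averaged the gene passed at -0.22, and by its most variable probe set at -0.78.

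LMOD1 likewise had 5 dim probe sets, of which 2 passed as lower (-0.44 and -0.56), and TPM4 had 2 of 5 (-0.17 and -0.19). With all probe sets averaged LMOD1 passed at -0.26 and TPM4 at -0.14. TPM1, LMOD1 and TPM4 thus had some probe sets that passed as lower while the one with the highest mean did not.

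**Figure D3:**
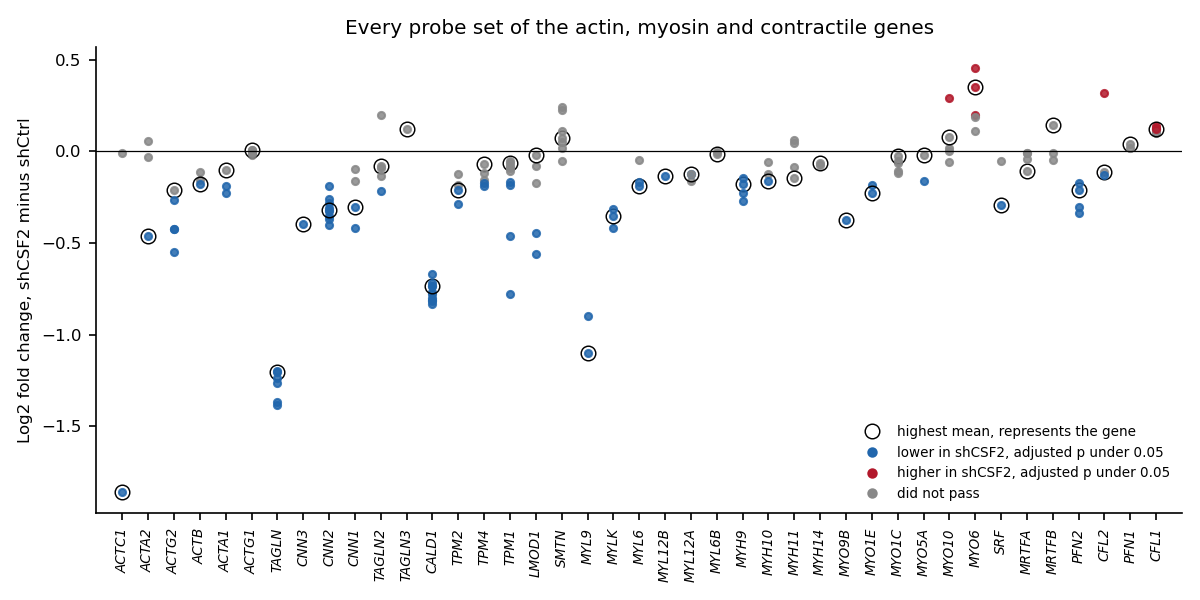
Log2 fold change (shCSF2 minus shCtrl, vertical axis) of all 158 probe sets of the 41 genes, with the probe set that represents each gene circled and the colours marking probe sets that passed in a fit over all 44988 single-gene probe sets. CALD1, TAGLN and CNN2 form tight columns below 0, while TPM1, ACTC1, ACTG2 and CFL2 spread.

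Over the 158 probe sets, 72 were called lower and 9 higher in the fit over all 44988 single-gene probe sets, where 14.2% were lower and 15.6% higher. For 8 of the 37 genes with more than 1 probe set, every one was lower: TAGLN, CALD1, CNN2, MYL9, MYLK, MYH9, MYO1E and PFN2. CFL2 was the only gene with probe sets called in both directions.

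Of the myosin II light chains and their kinase, 5 of 6 genes fell and 0 rose, beside 16.0% and 16.7% of all genes. MYL9, the regulatory light chain of smooth-muscle and nonmuscle myosin II, read 9.25, 9.27 and 9.20 in shCSF2 cells, against 10.36, 10.35 and 10.32 in shCtrl cells. The groups were more than 1 log2 unit apart (log2 fold change -1.10 ± 0.04), and both probe sets passed. MYLK, the kinase that phosphorylates this chain, fell by 0.35 ± 0.06 on the log2 scale, with all 3 probe sets lower, from -0.42 to -0.31. The essential light chain gene MYL6 fell slightly (-0.19 ± 0.03), and its close relative MYL6B did not pass (-0.01 ± 0.04).

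MYL12A and MYL12B, the regulatory light chains of nonmuscle cells, had log2 fold changes of -0.12 ± 0.03 and -0.14 ± 0.03. Both passed, but their transcripts are very alike, so the pair may not be separate readings. When 1 array at a time was left out, the MYL12A call was lost in 5 of 6 fits, all but the one without shCtrl replicate 2, and the MYL12B call in 5, all but the one without shCSF2 replicate 1. Limma adjusted p ranged from 0.0469 to 0.0886 for MYL12A and from 0.0305 to 0.0635 for MYL12B over these fits.

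Of the myosin II heavy chains, 2 of 4 genes fell and 0 rose, beside 16.0% and 16.7% of all genes. MYH9 (nonmuscle IIA) averaged 11.12 ± 0.02 in shCSF2 and 11.30 ± 0.02 in shCtrl cells, and its 4 probe sets were all lower, from -0.27 to -0.15. MYH10 (nonmuscle IIB) averaged 9.12 ± 0.01 in shCSF2 and 9.28 ± 0.03 in shCtrl cells, and 1 of its 3 probe sets passed. The smooth-muscle heavy chain gene MYH11 did not pass (-0.14 ± 0.05), and its other 3 probe sets had means under 3. MYH14 did not pass and was dim, at 3.28 ± 0.18 in shCSF2 and 3.34 ± 0.15 in shCtrl cells.

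The unconventional myosins are single-headed or dimeric motors that move membranes and cargo rather than stress fibres. Of these 6 genes 2 fell and 1 rose, beside 16.0% and 16.7% of all genes. MYO6, the motor that walks towards the pointed end of the filament, read 7.60, 7.48 and 7.57 in shCSF2 cells, against 7.22, 7.20 and 7.18 in shCtrl cells. It rose without overlap (log2 fold change 0.35 ± 0.04), by 3 of its 5 probe sets. MYO9B fell (-0.37 ± 0.05, measured by 1 probe set), as did MYO1E, a membrane-binding myosin (-0.23 ± 0.05). MYO1C (-0.03 ± 0.04), MYO5A (-0.02 ± 0.04) and MYO10 (0.08 ± 0.04) did not pass, although 1 of the 5 probe sets of MYO10 passed as higher at 0.29 and 1 of the 2 of MYO5A as lower at -0.16.

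Of the transcriptional regulators, SRF fell and its MRTF partners did not pass. SRF read 7.60, 7.52 and 7.51 in shCSF2 cells, against 7.81, 7.89 and 7.82 in shCtrl cells. The ranges are close but separate (log2 fold change -0.29 ± 0.04), and the other, dimmer probe set did not pass (-0.05), so that the mean of both was -0.17. MRTFA had a log2 fold change of -0.11 ± 0.13, the widest error of the 41 genes, with shCSF2 replicate 1 at 5.37 and the other 5 arrays between 5.79 and 5.89. MRTFB had 0.15 ± 0.06 and passed in the fit without shCtrl replicate 1.

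Myocardin, the third SRF partner and no member of the list, was also measured. MYOCD read 9.21, 9.22 and 9.18 in shCSF2 cells, against 9.65, 9.66 and 9.67 in shCtrl cells. It fell without overlap (log2 fold change -0.46 ± 0.03, limma adjusted p = 0.000117), and 3 of its 4 probe sets passed as lower.

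Cofilins sever filaments and profilins supply monomers for growth, and in each family 1 gene passed. CFL1, nonmuscle cofilin, read 12.49, 12.49 and 12.52 in shCSF2 cells, against 12.38, 12.35 and 12.40 in shCtrl cells. It was higher by a small amount (0.12 ± 0.03), a call lost in 5 of 6 fits with 1 array removed, all but the one without shCtrl replicate 3, with limma adjusted p between 0.0476 and 0.0867. PFN2 fell (-0.21 ± 0.03), with its 4 probe sets between -0.34 and -0.17, while PFN1 did not pass (0.04 ± 0.04).

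CFL2, muscle cofilin, gave opposite answers by probe set. The brightest averaged 10.38 ± 0.02 in shCSF2 and 10.49 ± 0.03 in shCtrl cells and just missed the threshold (-0.11 ± 0.03, limma adjusted p = 0.0501). Another read 9.36, 9.35 and 9.35 in shCSF2 cells, against 9.07, 9.03 and 9.00 in shCtrl cells, and was called higher at 0.32, and the remaining one was called lower at -0.13. No direction is given for this gene.

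Markers of other contractile or stromal cells, and of the thyroid and epithelial origin of the line, were read beside these genes. The summed level of 8 smooth-muscle markers outside the list ranged from 9.82 to 9.85 on the log2 scale in shCSF2 and from 10.15 to 10.18 in shCtrl arrays. MYOCD was the only one of the 8 that fell, and none rose. Without MYOCD, left out after its values were seen, the sum ranged from 8.34 to 8.35 in shCSF2 and from 8.36 to 8.44 in shCtrl arrays. The sum of 8 fibroblast markers ranged from 9.07 to 9.10 in shCSF2 and from 9.52 to 9.58 in shCtrl arrays. The brightest of these 8 had a mean of 8.44, and the sum was not repeated without any gene. Of these 8, THY1 (-0.61 ± 0.04) and POSTN (-0.43 ± 0.04) fell and 0 rose, beside the 16.0% of all genes that fell. PDGFRA and PDGFRB, which also had means of at least 5, did not pass, and COL3A1, DCN, LUM and FAP had means under 5. Of 12 striated-muscle markers 2 fell, TNNI3 and MYL2, both with means under 5, and 0 rose, a share near the 16.0% of all genes that fell. CKM and TNNT3, the 2 with means of at least 5, did not pass. The sum lay between 7.94 and 7.99 in shCSF2 and between 8.05 and 8.11 in shCtrl arrays, and MYH6, MYH7, MYOG and MYOD1 had means under 5. The sum of 6 thyroid markers ranged from 10.03 to 10.08 in shCSF2 and from 10.32 to 10.33 in shCtrl arrays, NKX2-1 alone fell (-0.42 ± 0.04), and without it the sum ranged from 8.62 to 8.67 in shCSF2 and from 8.64 to 8.69 in shCtrl arrays. The sum of 6 epithelial markers overlapped, from 13.04 to 13.09 in shCSF2 and from 13.05 to 13.12 in shCtrl arrays, and KRT8 alone fell (-0.26 ± 0.05). The part of these markers in the contractile genes was not tested.

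The wider actin machinery was read through 7 lists of related genes, with 123 of 134 genes measured. Over all 7 lists 41 genes fell and 15 rose, beside 16.0% and 16.7% of all genes, and the median of their log2 fold changes was -0.06. The 6 lists described below leave out 1 that is counted in this total, with 5 genes lower and 4 higher of 23 and a median of 0.01. The crosslinking and stress-fibre list leaned lower, with 10 of 19 genes lower, 2 higher and a median of -0.23. Its largest fall was in AFAP1, an actin-filament crosslinker (-1.25 ± 0.04), followed by the stress-fibre scaffold genes PALLD (-0.50 ± 0.04) and PDLIM5 (-0.47 ± 0.03, or -0.22 over its 6 probe sets). LIMA1 (0.30 ± 0.03, or 0.18 over 3 probe sets) and the plastin gene PLS1 (0.20 ± 0.04) rose.

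Of the other partners and cytoskeletal targets of SRF, 6 of 16 fell and 3 rose (median -0.07), beside 16.0% and 16.7% of all genes. After MYOCD, the LIM-domain gene CSRP2 (-0.42 ± 0.04) and the matricellular gene CCN1 (-0.41 ± 0.05) fell most. The ternary complex factor gene ELK3, whose product binds DNA with SRF, rose (0.47 ± 0.04), as did FILIP1L (0.26 ± 0.04, or 0.11 over 7 probe sets) and ELK4 (0.21 ± 0.04, which did not pass over its 4 probe sets).

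Among formins and Ena/VASP proteins, which lengthen filaments, 7 of 15 fell and 3 rose (median -0.03), beside 16.0% and 16.7% of all genes. VASP rose (0.90 ± 0.03, 1 probe set), as did FHOD1 (0.22 ± 0.05) and ENAH (0.12 ± 0.04), whose calls were lost with all probe sets averaged. ENAH also lost its call without shCSF2 replicates 2 or 3 and without any 1 of the shCtrl arrays. FMN2 (-0.39 ± 0.04), DAAM1 (-0.34 ± 0.08) and FMNL3 (-0.28 ± 0.06) fell, DAAM1 losing its call without shCtrl replicate 2 and FMNL3 with both probe sets averaged.

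Of the branched nucleation list, the Arp2/3 complex and its activators, 6 of 18 fell and 1 rose (median -0.10), with CYFIP1 (-0.27 ± 0.05, or -0.11 over 3 probe sets) lowest and ARPC5L (0.23 ± 0.04) higher. Of the severing, capping and monomer-binding list, 6 of 21 fell and 1 rose (median -0.04), led by the dim SCIN (-0.42 ± 0.06, or -0.22 over 2 probe sets) and the gelsolin gene GSN (-0.38 ± 0.05, 1 probe set), with EPS8 (0.23 ± 0.04) higher. Of the other unconventional myosins, 1 of 11 fell (MYO1D, -0.30 ± 0.07) and 1 rose (MYO5C, 0.20 ± 0.04), and both calls were lost with all probe sets averaged. Beside these lists, 16.0% of all genes fell and 16.7% rose.

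**Figure D4:**
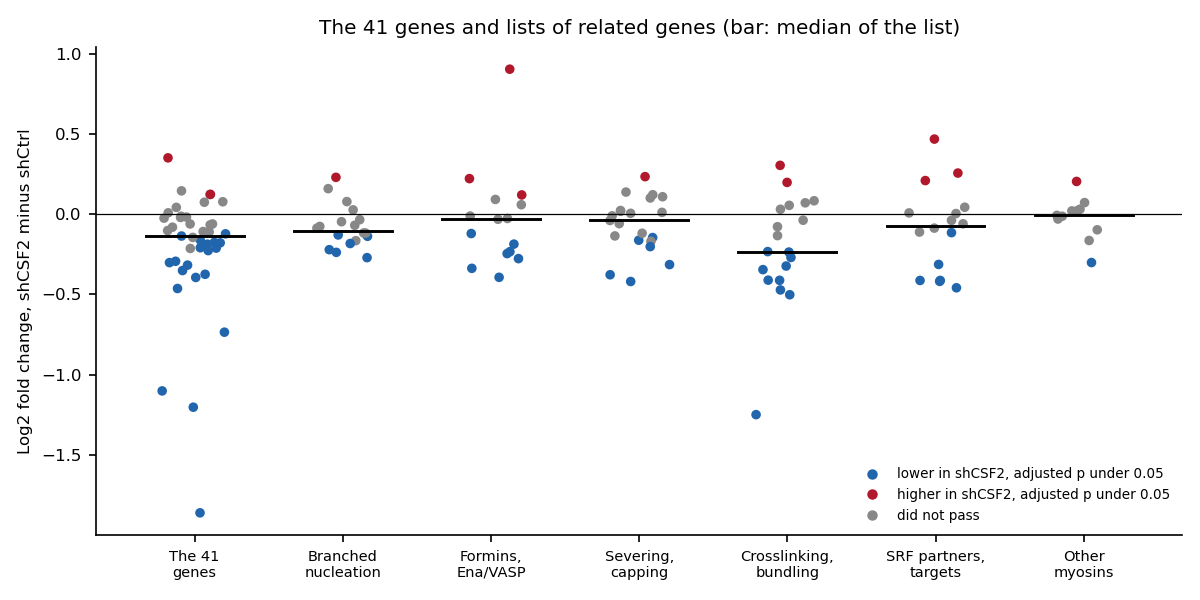
Log2 fold change (shCSF2 minus shCtrl, vertical axis) of the 41 genes and of 6 lists of related actin genes, 1 point per gene, spread sideways only to separate points, with the list median as a bar; blue points passed as lower, red as higher and grey did not pass. The crosslinking list has the lowest median of these 6 related lists (-0.23), and VASP (0.90) stands highest.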

How the data were processed

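The authors deposited log2 expression values, 1 per probe set and array, from PrimeView arrays hybridised with cRNA from 200 ng of total RNA, per the labels' protocols. RMA, limma and oligo appear in the submitters' processing notes, with no version or role. All 6 columns were mapped to samples by name. Gene names came from the platform annotation, in which 1832 probe sets paired with several genes and 2473 not listed were left unnamed. Symbols were checked by gene identifier against RefSeq. The fit used limma 3.58.1 in R 4.3.3 (lmFit and eBayes, shCSF2 minus shCtrl, no block or filter), with Benjamini-Hochberg adjustment over 18132 genes and a threshold of 0.05. When the fit of this comparison was tested on simulated data (18132 genes), 52% of genes given a log2 change of 0.3 were recovered, and 84% of those given 0.5. Only 50 genes were given each size of change, and 173 genes were called there, against 5930 in the data. The adjusted threshold was therefore stricter in the simulation, and these shares do not give the recovery in the data. The genes, related lists and markers were chosen with earlier results of these data known. Array values are given for every actin and for genes that passed with a log2 change of at least 0.4, for the passing gene of opposite sign in a role group, and for a few others chosen after their values were seen (MYOCD, SRF, CFL2 and TPM1 among them). From each related list up to 3 genes per direction were eligible, and 1 list, counted in the total over 7, is not reported here. The number of arrays limits the precision, and replicates are biological per the labels.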

Additional observations from a re-analysis of the deposited data

How the results depend on the processing

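Each result was recomputed under 16 alternatives: filters on dim genes, other normalisations, a variance trend, array weights, other choices of probe set, the replicate block and leaving out each array. The number of the 41 genes that fell stayed between 17 and 25. Of the 22 calls, 15 held in every alternative in which the gene was tested. Among these 15, ACTA2 and MYO9B were left out by the filter at the median over genes (6.28), so they were not tested there. The number that rose was 4 with genes under a mean of 5, or below the median, left out, 1 with the replicate number as a block, and 1 to 3 without 1 array. It was 1 without any 1 of the shCSF2 arrays and without shCtrl replicate 2, against 2 in the fit reported. Of the related genes 23 rose with the variance trend, against 15. No other count over these genes, the related genes or all genes moved by more than 1.5 times.

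The sign of a difference turned only in genes that had not passed. With all probe sets averaged it was -0.0045 for ACTG1 and 0.027 for CFL2. By the most variable probe set it was -0.019 for ACTG1, 0.20 for TAGLN2, 0.061 for MYH11, -0.049 for MRTFB and 0.32 for CFL2, which then passed. It was 0.0059 for LMOD1 with cyclic loess. Without 1 array, values ran from -0.00079 to 0.019 for ACTG1, -0.081 to 0.053 for LMOD1, -0.045 to 0.0077 for MYL6B, -0.16 to 0.021 for MYH14, -0.039 to 0.0069 for MYO5A and -0.21 to 0.054 for MRTFA. ACTB, TPM2 and MYL6 lost their calls by the most variable probe set, and MYH9 (-0.27) and PFN2 (-0.34) differed more by it. The variance trend added calls of ACTG2, TAGLN2, TAGLN3, TPM1, TPM4 and CFL2, and leaving out dim genes added calls of ACTA1, TAGLN3, MRTFB and CFL2 at both limits.

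Whether replicate numbers pair the arrays was not settled. The deviations of same-numbered arrays from their group means correlated at 0.03, 0.05 and 0.03, and those of other pairs at -0.08 to 0.04. For shCSF2 replicates 1 and 2 the own number correlated most, while shCSF2 replicate 3 correlated more with shCtrl replicate 1. Such small values cannot show or exclude pairing. With the replicate number as a block 19 genes fell and 1 rose, the calls of MYL12A, MYL12B, CFL1 and the related gene ENAH were lost, and ACTG2 was called. The largest shift of the median over all genes, at -0.03, was under 0.1 in every alternative.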
